A study of Mus musculus with 6 samples.

Results

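The genes described here are 9 eosinophil genes of the mouse, measured in 3 sorted cell fractions of the tongue: the receptors Siglecf, Ccr3 and Il5ra, the granule proteins Prg2 and Epx, and the eosinophil-associated ribonucleases Ear1, Ear2, Ear6 and Ear7. They were taken from the array by gene name, with every probe that carries one of those names, which gave 13 of 56605 probes. A probe was kept if some fraction had it well above background on each of its 2 arrays, and 12 of the 13 passed. All 9 genes were among the 20817 genes with a kept probe. The genes had been selected on their levels in the 3 fractions of these same arrays, so those levels are given as a description, with differences and standard errors and no p-value.

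The study compared dendritic cell and macrophage subsets of the mouse oral mucosa on 1-colour microarrays. RNA was amplified before it was labelled with the dye Cy3. All mice were BALB/c and all had been painted with the hapten FITC 2 times, so no group was unpainted. The labels name the tissue as sublingual mucosa, and the digestion protocol names the dorsal side of the tongue. The 3 fractions were separated by flow sorting after enzymatic digestion. Fr1 was CD11c+CD206-, Fr2 was CD11c-F4/80+CD206- and Fr3 was F4/80+CD206hi. Each fraction had 2 arrays, from independent experiments. Age, sex and the number of mice in a sort are not given in the sources used here. The gates name neither Siglec-F nor CCR3.

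Eosinophils are granulocytes that mature under interleukin 5, which they sense through a receptor whose private chain is Il5ra. They follow the eotaxin chemokines through Ccr3 and carry the sialic acid receptor Siglec-F, which alveolar macrophages also carry. Their granules store cationic proteins, among them major basic protein (Prg2), eosinophil peroxidase (Epx) and ribonucleases of the RNase A family. In the mouse those ribonucleases form a family of close copies, the Ear genes, and some of them are also known from macrophages. Mouse eosinophils also carry F4/80.

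Each level below is the log2 intensity of a probe minus the 75th percentile of its array, so 0 is the level that 25 percent of the probes on that array exceed. Levels were compared across fractions within a probe, and never between probes. Between 44.6 and 52.4 percent of probes were well above background on each array, and none was saturated. Both Fr2 arrays lay on 1 slide and the other 4 arrays on another, so fraction and slide cannot be told apart in any difference that involves Fr2, while Fr1 and Fr3 were compared on the same slide. With 2 arrays in a fraction, the number of arrays limits the precision of every value. The replicates agreed least in Fr3, with a Pearson r across genes of 0.796, against 0.883 in Fr1 and 0.898 in Fr2. Of 20817 genes, 1602 were over 8-fold lower on replicate 2 of Fr3 than on replicate 1, and 241 over 8-fold higher. In Fr1 these counts were 298 and 213, and in Fr2 361 and 142. Every difference that involves Fr3 carries that limit. Mrc1, which encodes CD206, was highest in Fr3, the CD206hi fraction, but differed between Fr1 and Fr2, which were both gated CD206-. It stood at -4.09 and -3.50 in Fr1 (not well above background), 0.64 and 0.33 in Fr2 and 3.78 and 2.67 in Fr3. Both Fr2 arrays were well above background for it, at least 6.72-fold above Fr1 in the mean. Itgax, which encodes CD11c, did not separate Fr1 from Fr2, with 2.71 and 2.35 in Fr1, 2.77 and 1.20 in Fr2 and 0.20 and 0.95 in Fr3. Adgre1, which encodes F4/80, was at 4.49 and 4.39 in Fr1, 5.94 and 5.97 in Fr2 and 5.46 and 5.32 in Fr3.

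The Ear genes are near copies of each other, so their probes were first compared base by base over every ungapped overlap of at least 30 bases, on both strands. The Ear1 probe (chr14:44396709-44396768 of mm9, minus strand) and the second Ear7 probe (chr14:52473974-52474033, plus strand) are printed here because they were among the closest pairs. Their capitals mark the bases that differ between them.
Ear1: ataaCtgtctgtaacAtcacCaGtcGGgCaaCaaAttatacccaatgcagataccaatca
Ear7: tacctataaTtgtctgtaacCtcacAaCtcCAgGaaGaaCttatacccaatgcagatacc
They overlapped over 55 bases, of which 46 were identical and 9 differed (83.6 percent identity), and the overlap ended in a shared run of 20 bases. The probe of Ear2 and the second probe of Ear6 overlapped over 45 bases with 40 identical (88.9 percent) and shared a run of 23 bases, gctgaatagatcttttctaatta. No other probe on the array shared 20 or more bases in a row with a probe of the 9 genes, on either strand. The Ear1 probe matched the probe of Rnase2b, another gene of the family, at 37 of 47 overlapping bases (78.7 percent).

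The first Ear6 probe (chr14:52473908-52473967, plus strand) and the probes of 2 family members outside the group, Ear10 (chr14:44500615-44500674, minus strand) and Rnase2a (chr14:51875064-51875123, minus strand), are shown for contrast, since none of these 3 shared a run of 20 bases with another gene's probe among the 9 genes.
Ear6: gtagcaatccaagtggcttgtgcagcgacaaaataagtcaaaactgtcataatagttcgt
Ear10: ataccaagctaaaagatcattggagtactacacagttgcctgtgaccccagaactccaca
Rnase2a: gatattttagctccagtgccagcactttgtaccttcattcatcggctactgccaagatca
The deposited files place the first Ear7 probe at chr14:52473826-52473885 and the second Ear6 probe at chr14:52474253-52474312, both on the plus strand, so the probes of Ear6 and Ear7 alternate along 1 short stretch of chromosome 14. Signal of Ear6 and Ear7 is therefore uncertain as to which of these copies it came from, and the same holds for Ear1 against Ear7 and Ear2 against Ear6. The comparison set probes against probes and not against whole transcripts. Whether any probe of the family also binds the RNA of another copy was therefore not tested, and the remaining pairs are not cleared by it. Which exon or untranslated region a probe lies in is not used here, for want of an annotation of that build.

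All 9 genes had their highest mean level in Fr2, and for all 9 the 2 Fr2 arrays lay above the 2 Fr3 arrays. That arrangement held for 19.5 percent of all genes tested. Fr2 lay above Fr1 without overlap for 7 of the 9, the exceptions being Ccr3 and Epx, against 22.3 percent of all genes. Fr1 lay above Fr3 without overlap for Siglecf, Ccr3 and Prg2, against 13.7 percent of all genes. These counts use the values that chose the genes, so nothing is read from them. The median log2 difference of the 9 genes was -2.85 for Fr1 minus Fr2, 0.24 for Fr1 minus Fr3 and 2.65 for Fr2 minus Fr3. Over all genes these medians were 0.03, -0.05 and -0.08. In bulk samples such as these, fewer cells of a type and less RNA per cell cannot be told apart.

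**Figure D1:**
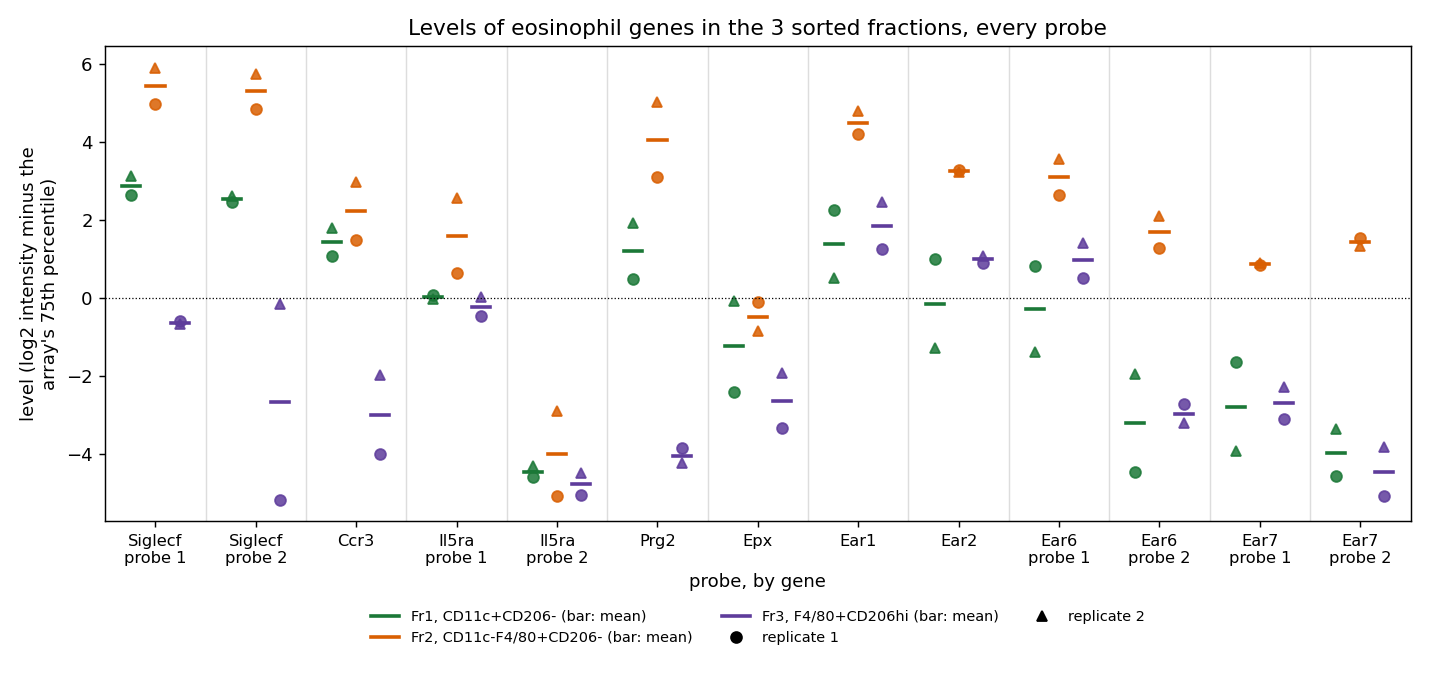
Level of each of the 13 probes (y axis, log2 intensity minus the 75th percentile of the array) by gene (x axis); each point is 1 array, the symbol gives the replicate, the colour the fraction, and the bar the mean of 2 arrays. The Fr2 arrays are the highest for Siglecf, Prg2 and the Ear genes, while Fr1 lies between Fr2 and Fr3 for Siglecf and Prg2 and overlaps Fr2 for Ccr3 and Epx.

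Among the receptors, Siglecf, the sialic acid receptor, was clearly graded over the 3 fractions. Its brighter probe (chr7:50614417-50614476 of mm9, plus strand) stood at 2.64 and 3.13 in Fr1, 4.98 and 5.92 in Fr2 and -0.59 and -0.66 in Fr3. The fractions did not overlap, and the gap between neighbours in the order Fr2, Fr1, Fr3 was larger than the spread within any of them. Mean levels were 2.89 ± 0.35 in Fr1, 5.45 ± 0.67 in Fr2 and -0.63 ± 0.05 in Fr3 (SD, n = 2). Fr2 was 5.90-fold above Fr1 and 67.4-fold above Fr3, and Fr1 was 11.4-fold above Fr3 (SE of each log2 difference 0.59). The second Siglecf probe (chr7:50614768-50614827) gave the same order, with 2.46 and 2.63 in Fr1, 4.86 and 5.76 in Fr2 and -5.17 and -0.16 in Fr3. On that probe 1 Fr3 array was not well above background and the other was, so the probes disagree on how far below Fr1 the Fr3 level lay.

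Ccr3, the eotaxin receptor, separated Fr3 from the other fractions but not Fr1 from Fr2. Its probe (chr9:123945225-123945284, plus strand) stood at 1.09 and 1.79 in Fr1, 1.49 and 2.98 in Fr2 and -4.01 and -1.97 in Fr3, where the first array was not well above background. Means were 1.44 ± 0.50, 2.24 ± 1.05 and -2.99 ± 1.45 (SD, n = 2). The log2 difference was 4.43 ± 0.88 for Fr1 minus Fr3 and 5.23 ± 0.88 for Fr2 minus Fr3 (SE). Fr1 and Fr2 overlapped, with a difference of -0.80 ± 0.88 that ran from -1.54 to -0.05 when 1 array was left out, the latter without Fr2 replicate 2.

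Il5ra, the private chain of the interleukin 5 receptor, was high on 1 array only. Its kept probe (chr6:106660378-106660437, minus strand) stood at 0.09 and -0.03 in Fr1, 0.64 and 2.56 in Fr2 and -0.47 and 0.04 in Fr3. Fr1 and Fr3 overlapped, and the difference of Fr2 from both rested largely on Fr2 replicate 2. Fr1 minus Fr2 was -1.56 ± 0.75 (SE), and -0.60 without that array. Fr2 minus Fr3 was 1.81 ± 0.75, and 0.85 without it. The second Il5ra probe (chr6:106661009-106661068) was not well above background on any array and was not kept; Fr2 replicate 2, at -2.90, was also its brightest array.

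Prg2, the major basic protein of the granule, was graded over the fractions as Siglecf was. Its probe (chr2:84822799-84822858, plus strand) is printed because all values of this gene rest on it alone.
Prg2: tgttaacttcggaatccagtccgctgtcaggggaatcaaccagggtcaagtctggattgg
It stood at 0.50 and 1.93 in Fr1, 3.10 and 5.04 in Fr2 and -3.85 and -4.23 in Fr3. No 2 fractions overlapped, and neither Fr3 array was well above background, so a fold change against Fr3 is only a bound. Such a bound divides the brighter fraction's mean by a floor for the dim one: on each dim array, the probe's own level or the lowest level among probes well above background, whichever is greater, averaged over the arrays. Prg2 was at least 101-fold higher in Fr2 than in Fr3 and at least 14.0-fold higher in Fr1 than in Fr3. It was 7.21-fold higher in Fr2 than in Fr1 (log2 difference, Fr1 minus Fr2, -2.85 ± 0.84, SE; -3.82 without Fr2 replicate 1 and -1.88 without Fr2 replicate 2), with SDs of 1.01 in Fr1 and 1.37 in Fr2 (n = 2).

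Epx, the granule peroxidase, did not follow Prg2. Its probe (chr11:87678288-87678347, minus strand) stood at -2.40 and -0.08 in Fr1, -0.10 and -0.85 in Fr2 and -3.33 and -1.93 in Fr3. The first arrays of Fr1 and Fr3 were not well above background, Fr1 overlapped both other fractions, and both Fr2 arrays lay above both Fr3 arrays. Fr2 minus Fr3 was 2.15 ± 0.92 and Fr1 minus Fr2 was -0.76 ± 0.92 (SE), which turned to 0.40 without Fr1 replicate 1.

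**Figure D2:**
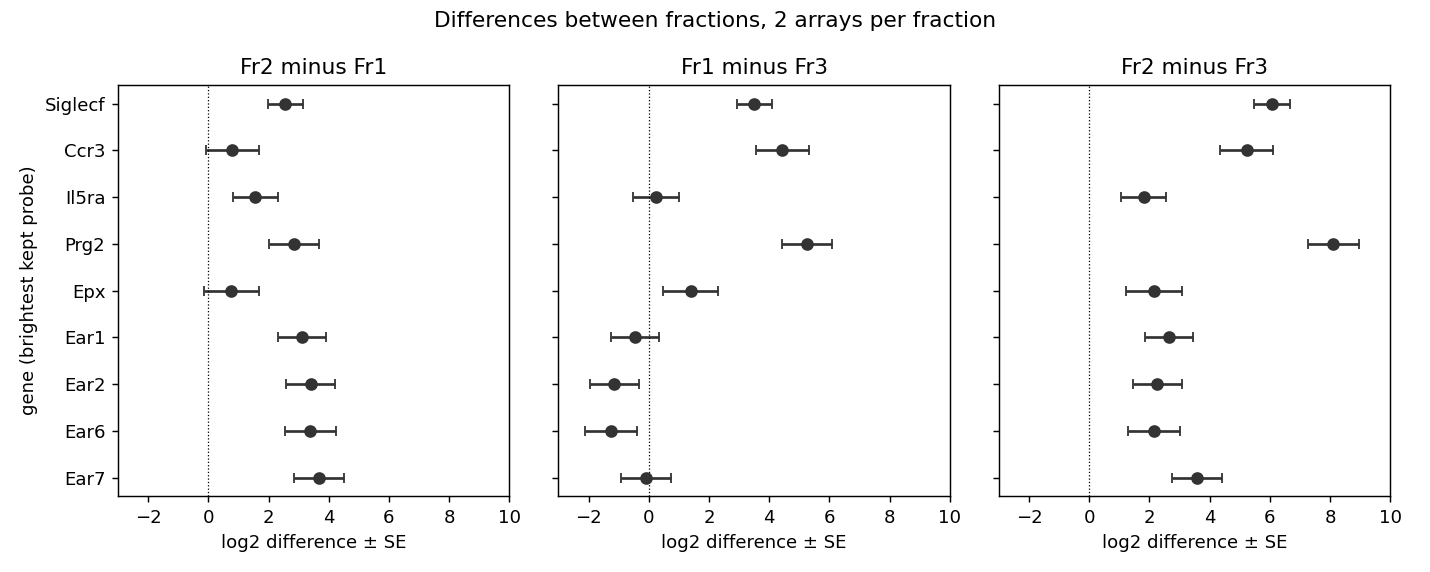
Log2 difference between fractions for each of the 9 genes (x axis, with SE bars from 1 shared fit over 6 arrays), by gene (y axis) and by pair of fractions (panels). Siglecf, Ccr3 and Prg2 are apart from 0 in Fr1 minus Fr3, at 3.51, 4.43 and 5.26, while Il5ra and the Ear genes lie between -1.25 and 0.24; points for Prg2 and Ear7 against Fr3 use levels not well above background there.

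In the ribonucleases, as in Il5ra, Fr1 did not stand above Fr3, unlike in Siglecf, Ccr3 and Prg2. Ear1 was at 2.27 and 0.51 in Fr1, 4.21 and 4.80 in Fr2 and 1.25 and 2.46 in Fr3. Both Fr2 arrays were the highest, and Fr1 and Fr3 overlapped. Fr2 was 8.67-fold above Fr1 and 6.29-fold above Fr3 (SE of each log2 difference 0.79), and Fr1 minus Fr3 was -0.46 ± 0.79.

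Ear2 (chr14:44681119-44681178, plus strand) repeated that pattern, with 1.01 and -1.29 in Fr1, 3.28 and 3.23 in Fr2 and 0.91 and 1.09 in Fr3. Fr2 was 10.5-fold above Fr1 and 4.78-fold above Fr3 (SE of each log2 difference 0.81). Leaving out 1 array moved Fr1 minus Fr2 between -4.55, without Fr1 replicate 1, and -2.25, without Fr1 replicate 2; between the same settings it moved from -3.99 to -2.24 for Ear1, from -4.50 to -2.29 for Ear6 and from -4.82 to -2.54 for Ear7. Fr1 and Fr3 overlapped because the 2 Fr1 arrays differed by more than the 2 Fr3 arrays did (SD 1.62 against 0.12, n = 2).

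The first Ear6 probe stood at 0.83 and -1.39 in Fr1, 2.64 and 3.58 in Fr2 and 0.53 and 1.41 in Fr3. Fr2 was again above both others, 10.5-fold above Fr1 and 4.42-fold above Fr3 (SE 0.86). The second Ear6 probe stood at -4.47 and -1.95 in Fr1, 1.29 and 2.12 in Fr2 and -2.72 and -3.20 in Fr3. It was not well above background in Fr1 or Fr3, which makes Fr2 at least 14.8-fold above Fr1 and at least 18.5-fold above Fr3. The Ear6 probes thus share the order with Fr2 highest and disagree on whether Fr1 and Fr3 held a measurable level.

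Ear7 was measurable mainly in Fr2. Its first probe stood at -1.65 and -3.93 in Fr1, 0.86 and 0.91 in Fr2 and -3.11 and -2.28 in Fr3. The second Fr1 array and both Fr3 arrays were not well above background, and Fr2 was at least 11.1-fold above Fr3. The second probe, at -4.57 and -3.37 in Fr1, 1.54 and 1.33 in Fr2 and -5.07 and -3.83 in Fr3, gave bounds of at least 13.0-fold over Fr1 and at least 16.3-fold over Fr3. In all 4 Ear genes, and on all 6 of their probes, both Fr2 arrays lay above the other 4 arrays.

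Other members of the same ribonuclease family did not share that pattern. Ear10 stood at 0.25 and 1.63 in Fr1, 3.74 and 3.76 in Fr2 and 4.08 and 3.81 in Fr3. Ear12 stood at -1.25 and -3.46 in Fr1, 2.89 and 2.37 in Fr2 and 3.70 and 3.00 in Fr3. Rnase2a, the mouse counterpart of human eosinophil-derived neurotoxin, stood at -0.32 and -2.31, 3.94 and 3.53, and 4.16 and 3.50. All 3 had means in Fr3 at or slightly above those in Fr2, where the 4 Ear genes above had lower levels in Fr3. For Fr2 minus Fr3 their log2 differences were -0.19, -0.72 and -0.09, against 2.65, 2.26 and 2.14 for Ear1, Ear2 and Ear6, while for Ear7 only the bound above can be given. For Fr1 minus Fr3 they were -3.0, -5.70 and -5.14, with adjusted p-values over all genes of 0.268, 0.144 and 0.144 (limma). For Fr1 minus Fr2 they were -2.81, -4.98 and -5.05, with adjusted p-values of 0.322, 0.239 and 0.239, so none passed. Ear12 and Rnase2a were each well above background on only 1 of the 2 Fr1 arrays, so the sizes of their differences from Fr1 are uncertain. Ear4 was at -0.53 and -1.91, -0.82 and -0.93, and -1.14 and -4.53, in Fr1, Fr2 and Fr3, without a fraction that stood apart. Rnase2b was well above background on 1 of the 6 arrays only and was not tested.

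**Figure D3:**
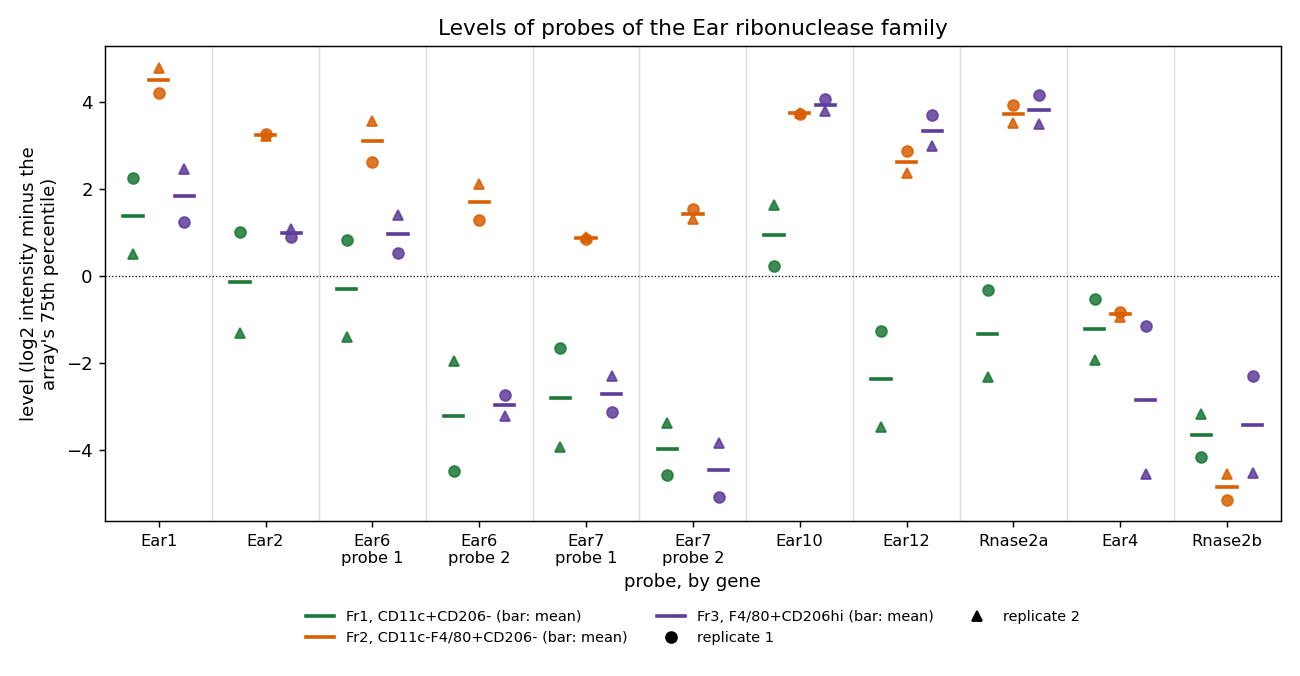
Level of each probe of the Ear ribonuclease family (y axis, log2 intensity minus the 75th percentile of the array) by gene (x axis); points are arrays, symbols replicates, colours fractions and bars means of 2 arrays. Ear1, Ear2, Ear6 and Ear7 are highest in Fr2, while Ear10, Ear12 and Rnase2a are at similar levels in Fr2 and Fr3 and lower in Fr1.

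The promoters of these ribonucleases were read from the RefSeq table of GRCm38.p6 (250 bases before to 50 after each start). They are shown because Ear1, Ear2 and Ear6 differed in their pattern of level from Ear10 and Rnase2a. Of the 9 genes 7 had a promoter in that table, all but Prg2 and Ear7. The 120 bases just before the start follow, with capitals for bases that differ from Ear1 or have no counterpart in it. They lie at chr14:43819640-43819759 (minus strand) for Ear1, chr14:44102534-44102653 (plus) for Ear2, chr14:51853648-51853767 (plus) for Ear6 and chr14:43923597-43923716 (minus) for Ear10.
Ear1: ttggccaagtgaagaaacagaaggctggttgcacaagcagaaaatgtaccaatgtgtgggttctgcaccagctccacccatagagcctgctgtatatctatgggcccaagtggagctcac
Ear2: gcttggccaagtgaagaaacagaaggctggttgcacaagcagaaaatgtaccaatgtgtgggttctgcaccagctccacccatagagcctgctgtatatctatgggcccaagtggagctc
Ear6: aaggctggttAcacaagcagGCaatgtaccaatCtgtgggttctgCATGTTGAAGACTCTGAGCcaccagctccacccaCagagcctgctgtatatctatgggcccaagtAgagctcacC
Ear10: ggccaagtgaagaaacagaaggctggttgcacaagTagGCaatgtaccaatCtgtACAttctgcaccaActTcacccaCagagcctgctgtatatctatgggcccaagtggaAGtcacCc
In this stretch Ear2 had no base that differed from Ear1, Ear10 had 13 and Ear6 had 26. Over the whole 300 bases Ear1 and Ear2 were identical at 294 of 297 aligned bases (99.0 percent), Ear1 and Ear10 at 92.9 percent and Ear1 and Ear6 at 92.8 percent. These shares leave out gaps inside the alignment, of which Ear1 against Ear10 held 1 base and Ear1 against Ear6 held 20. Rnase2a was more distant, at 87.6 percent to Ear1 and 89.6 percent to Ear6.

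GATAA, the core of the motif bound by GATA factors, was searched in the same windows on both strands. It occurred in Il5ra, Siglecf, Ccr3, Ear1, Ear2, Ear6, Ear10 and Rnase2a, and not in Epx. Of all 32851 promoters in the table, 25.4 percent held it. The Ear promoters are near copies, so their matches are not separate observations, and a match of 5 letters is a description of the window only.

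Across the 9 genes, likeness of pattern was measured as the root mean square difference of the 6 levels after each gene was centred on its own mean, so that 0 is an identical pattern. The closest pairs were Ear2 with Ear6 at 0.35, Ear1 with Ear6 at 0.38, Ear1 with Ear7 at 0.45 and Ear1 with Ear2 at 0.47. Ear2 with Ear6 and Ear1 with Ear7 are also pairs that hold probes with a shared run of 20 or more bases, although the Ear6 and Ear7 levels used here come from each gene's other probe. Siglecf lay at 0.96 from Ccr3 and 0.98 from Prg2, and Ccr3 at 1.42 from Prg2.

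Over all other named genes, the nearest to Siglecf were Cmc2 (0.52), Pglyrp1 (0.58), a peptidoglycan-binding protein of granulocytes, and Tuba8 (0.59). Nearest to Prg2 was F5 (0.43), coagulation factor V, at 1.19 and 2.71 in Fr1, 4.04 and 4.74 in Fr2 and -3.62 and -3.43 in Fr3. Grhl1 (0.59) and Tgm2 (0.70), a transglutaminase, were among the 3 nearest to Ccr3. Abcb10, a mitochondrial transporter, was nearest to Ear6 (0.18) and to Ear1 (0.36). Il1rl1, the interleukin 33 receptor, was second nearest to Ear1 (0.37). Prr15 was nearest to Ear2 (0.39) and Enah, a regulator of actin filaments, to Ear7 (0.36). For Epx and Il5ra the nearest genes were Btg4 (0.26) and Sbpl (0.15). With 6 arrays of 3 fractions, such distances describe these arrays only.

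In the fit over all genes, the limma test passed 1 gene for Fr1 against Fr3 and 1 for Fr2 against Fr3, at an adjusted p under 0.05, which is 0.00480 percent of the genes tested in each, and 0 (0 percent) for Fr1 against Fr2. The gene in each case was Gm2042, which is not among the 9. At an unadjusted p under 0.05 there were 1690, 1856 and 2038 genes respectively, which is 8.12, 8.92 and 9.79 percent of those tested. For Fr1 against Fr3, 579 were higher in Fr1 and 1111 in Fr3. For Fr2 against Fr3, 1006 were higher in Fr2 and 850 in Fr3. For Fr1 against Fr2, 694 were higher in Fr1 and 1344 in Fr2. The gene lists that follow are read against that: none of their genes passed the adjusted threshold in any comparison, and counts below are at the unadjusted p.

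Eosinophil receptor signalling genes (8 listed, 8 tested) comprised the receptor chains Csf2ra, Csf2rb, Csf2rb2 and Il3ra and the signalling genes Jak2, Lyn, Stat5a and Stat5b. All were above background on all 6 arrays, and none reached an unadjusted p under 0.05 in any comparison. Their median log2 differences were -0.40 for Fr1 minus Fr2, 0.14 for Fr1 minus Fr3 and 0.46 for Fr2 minus Fr3. Csf2rb, the signalling chain that Il5ra pairs with, stood at 2.33 and 2.49 in Fr1, 2.89 and 3.66 in Fr2 and 1.67 and 2.89 in Fr3. Stat5b, a transcription factor, stood at 2.83 and 1.98, 3.31 and 3.52, and 2.59 and 2.38.

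Of 22 other genes known from eosinophils, 18 were tested, and 5 were higher in Fr2 than in Fr1 and 5 higher in Fr2 than in Fr3 at the unadjusted p, against 1 lower and 0 lower. Median differences were -0.53 for Fr1 minus Fr2 and 0.47 for Fr2 minus Fr3. Cebpe, a transcription factor of granulocyte maturation, stood at 0.32 and 1.11 in Fr1, 2.49 and 3.28 in Fr2 and -0.79 and -2.0 in Fr3 (Fr2 minus Fr3 4.28, adjusted p 0.136, limma). Its order over the fractions was that of Siglecf and Prg2. Il1rl1 stood at -0.94 and -1.56, 1.57 and 2.52, and -1.50 and -0.30 (Fr1 minus Fr2 -3.30, adjusted p 0.309, limma). Adgre4, an adhesion receptor, stood at -0.96 and -0.43, 0.10 and 1.99, and -2.24 and -1.80. Alox5, a leukotriene enzyme, stood at 0.37 and 0.12, 1.82 and 2.25, and 0.85 and 1.88. Other genes of the list, named after their values were seen, ran otherwise. Mean levels in Fr1, Fr2 and Fr3 were 0.17, -1.31 and 0.01 for Il13, the 1 gene lower in Fr2 than in Fr1 at the unadjusted p. They were 0.50, -0.17 and 0.18 for Prg3 and 1.84, 0.90 and 1.58 for Ltc4s. For C3ar1 they were 4.58, 5.12 and 6.26, and for Alox5ap 2.65, 3.37 and 4.05. Ptgdr2, Il4, Clc and Rnase3 were not among the genes tested.

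Of 13 attractants and growth factors of eosinophils, 10 were tested, and at the unadjusted p 4 were higher and 2 lower in Fr3 than in Fr1, and 3 were higher and 0 lower in Fr3 than in Fr2. Ccl24, an eotaxin and ligand of Ccr3, stood at -0.70 and -1.88 in Fr1, 1.91 and 1.51 in Fr2 and 3.67 and 2.59 in Fr3 (Fr1 minus Fr3 -4.42, adjusted p 0.147, limma). Ccl7, which also binds Ccr3, stood at -2.47 and -3.06 in Fr1, where neither array was well above background, -0.51 and -2.21 in Fr2 and 3.42 and 2.38 in Fr3. Fr3 thus lay at least 35.8-fold above Fr1 (adjusted p 0.144, limma). Ccl8 was at least 9.32-fold above Fr1 in Fr3 (adjusted p 0.213, limma). Other ligands of Ccr3, named after their values were seen, ran otherwise. Ccl11, the first eotaxin, stood at 2.47 and 1.64 in Fr1, 1.57 and 1.74 in Fr2 and 1.74 and 0.34 in Fr3, and Ccl5 at 1.96 and 2.32, 1.85 and 1.03, and -0.20 and 1.00. The genes lower in Fr3 than in Fr1 at the unadjusted p were Ccl5 and Ccl3 (Fr1 minus Fr3 1.74 and 1.99, adjusted p 0.567 and 0.499, limma). Il5, Il3 and Csf2 were not among the genes tested.

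The summed signal of another marker list, that of neutrophils, had the same order over the fractions as the summed signal of the 9 genes. Singly, not all of the 9 genes had that order. For Ear1, Ear2 and Ear6 the Fr1 mean lay below the Fr3 mean, with overlapping arrays. The 9 genes' signal, summed as multiples of each array's 75th percentile, was 19.9 and 20.3 in Fr1, 81.7 and 159 in Fr2 and 7.43 and 12.7 in Fr3. Neutrophil markers (14 of 15 tested, all but Ly6g) summed to 247 and 305 in Fr1, 681 and 727 in Fr2 and 145 and 144 in Fr3, the same order. At the unadjusted p, 8 of the 14 were higher in Fr2 than in Fr1 and 0 lower. Against Fr3, 11 were higher in Fr2 and 0 lower, and 4 were higher in Fr1 and 1 (Ltf) lower. Among the neutrophil markers Retnlg stood at 2.52 and 1.98, 5.91 and 6.53, and 0.85 and 0.50 (Fr2 minus Fr3 5.54, adjusted p 0.0827, limma). Camp, a granule peptide, stood at -2.20 and -1.58, 3.56 and 3.67, and -1.60 and -2.27 (Fr2 minus Fr3 5.56, adjusted p 0.0827, limma). The part of neutrophil RNA in the levels of the 9 genes was not tested.

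Alveolar-type macrophage genes were also examined, because Siglecf and some Ear genes are known from those cells. Of 13, 9 were tested. Marco, Car4, Fabp1 and Cidec were not well above background on both arrays of any fraction. The summed signal was 25.8 and 29.3 in Fr1, 49.7 and 66.3 in Fr2 and 42.4 and 31.6 in Fr3, and 5 of the 9 were higher in Fr2 than in Fr1 at the unadjusted p. The list holds Mrc1 and Itgax, which encode the sort antigens CD206 and CD11c. Both enter the sum, and Mrc1 is 1 of the 5. Chil3, a chitinase-like protein, stood at -4.68 and -3.51 in Fr1, 2.98 and 4.03 in Fr2 and -2.76 and -4.57 in Fr3, and was at least 54.5-fold above Fr1 in Fr2 (adjusted p 0.193, limma). Its part, and that of these cells, in the levels of Siglecf was not tested.

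Of 12 basophil and mast cell markers, 4 were tested (Hdc, Kit, Tpsb2 and Cd200r3), while Mcpt8, Prss34, Cpa3, Fcer1a, Ms4a2, Tpsab1, Mcpt4 and Cma1 were not well above background on both arrays of any fraction. The 4 summed to 9.98 and 21.1 in Fr1, 13.0 and 40.9 in Fr2 and 7.59 and 4.65 in Fr3. Hdc, the histamine-forming enzyme, stood at 2.58 and 3.97, 3.25 and 4.96, and 2.11 and 1.33. Replicate 2 of Fr2 was the highest array for this sum, as it was for Siglecf, Ccr3, Il5ra, Prg2, Ear1, Ear6 and the first Ear7 probe. It was not the highest for Ear2, Epx or the second Ear7 probe. The neutrophil and alveolar-type sums were also highest on that array. Macrophage markers (7 of 8 tested) ran otherwise, summing to 85.1 and 82.0 in Fr1, 275 and 126 in Fr2 and 367 and 325 in Fr3. The macrophage list holds Adgre1 and the dendritic cell list holds Itgax, which encode the sort antigens F4/80 and CD11c. The summed signals of Ly6C-low monocyte markers (7 tested), B cell markers (3) and epithelial markers (4) overlapped between Fr1 and Fr2, those of dendritic cell markers (8) overlapped between Fr2 and Fr3, and those of T and NK cells (6 tested) were highest in Fr1, at 17.6 and 19.2.

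**Figure D4:**
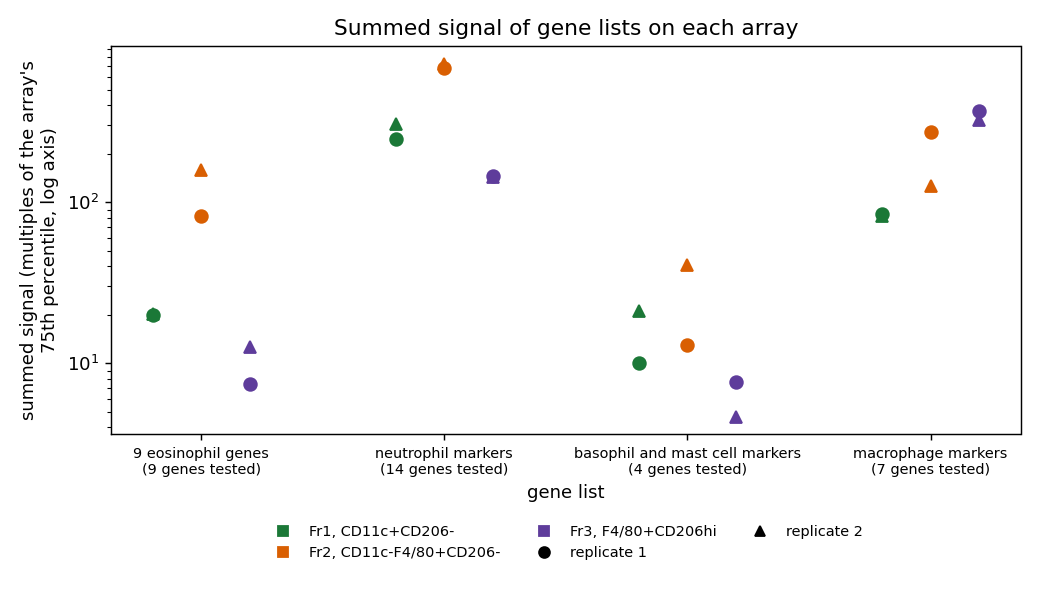
Summed signal of the 9 eosinophil genes and of 3 marker lists on each array (y axis, multiples of the array's 75th percentile, log axis) by list (x axis, with the number of genes tested); points are arrays, symbols replicates and colours fractions. The eosinophil and neutrophil sums are highest in Fr2 and lowest in Fr3, while the macrophage sum is highest in Fr3.

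Replicate arrays also differed by the base composition of the probe. In Fr3 the median log2 difference, replicate 2 minus replicate 1, was -0.94 for genes whose probe held over 35 percent T and 0.70 for those with at most 15 percent. In Fr1 these medians were -0.72 and 0.48, and in Fr2 they were -0.01 and 0.28. The Ear2 probe and the brighter Siglecf probe each held 41.7 percent T, and the Ccr3 probe and the kept Il5ra probe each held 16.7 percent. With probes over 30 percent T left out, Siglecf was read from its second probe, at 21.7 percent T, and Fr1 minus Fr3 was 5.21 and Fr2 minus Fr3 was 7.98, against 3.51 and 6.07 with the brighter probe. Ear2 has no other probe, and the part of base composition in its levels was not tested.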

How the data were processed

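RNA of 6 sorted samples was hybridised to 1-colour Agilent arrays. The deposited intensities are processed signals from Feature Extraction 11.5.1.1 with mm9 coordinates, per the file headers. The authors' deposited table of log2 values, an alternative here, matched the log2 signal minus the array's 75th percentile (r of 0.9999 or more). From the intensities, log2 signal minus each array's 75th percentile was computed; 4 probes with outlier flags were left out, probes that some fraction had well above background on each of its arrays were kept, and the brightest kept probe stood for each gene. The comparison of fractions used limma 3.58.1 (R 4.3.3) over all 6 arrays with 1 shared spread and Benjamini-Hochberg adjustment over 20817 genes, tested on simulated data. Probes were aligned in Python 3.11.15 and promoters with Biopython 1.88. Probe names were updated through RefSeq accessions (32989 probes), symbols (10228) or synonyms (519); 12869 kept the file's name. The members and gene lists were chosen with earlier results of these data known. Named by rule were all members, up to 4 genes of each list with the smallest limma p, and the 3 genes nearest to each member. Some other genes were named outside that rule. Replicates came from independent experiments; p-values measure the spread between these samples.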

Additional observations from a re-analysis of the deposited data

How the results depend on the processing

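The 27 differences of the 9 genes between fractions were recomputed under 16 or 17 alternatives each, and 22 kept 1 sign under all of them. The exceptions were Epx Fr1 minus Fr2 (0.40 without Fr1 replicate 1), Il5ra Fr1 minus Fr3 (-0.01 without Fr3 replicate 1), Ear2 Fr1 minus Fr3 (0.01 without Fr1 replicate 2), Ear1 Fr1 minus Fr3 (0.41 without Fr1 replicate 2, 0.14 without Fr3 replicate 2) and Ear7 Fr1 minus Fr3 (0.10 with normexp, 0.07 with the percentile over detected probes, 0.19 with the mean of all kept probes, 1.04 without Fr1 replicate 2, 0.32 without Fr3 replicate 2). Normexp background correction made the differences of dim genes smaller: Fr1 minus Fr3 was 1.97 for Siglecf, 1.25 for Ccr3 and 1.17 for Prg2, and Fr2 minus Fr3 was 4.46, 1.92 and 3.41. It gave Fr1 minus Fr2 of -1.98 for Ear2, -2.05 for Ear6 and -0.96 for Ear7, and Fr2 minus Fr3 of 1.60 for Ear2, 1.06 for Ear7 and 0.42 for Epx. Of 444 values, 19 moved by more than the replicate spread. Counts of called genes were 0, 1 and 1 for Fr1 against Fr2, Fr1 against Fr3 and Fr2 against Fr3. They became 3, 12 and 56 with probes over 30 percent T left out, and 13, 0 and 0 with only the arrays of the fractions compared. Normexp gave 3 for Fr1 against Fr3 and 13 for Fr2 against Fr3. For Fr1 against Fr3 the count was 0 with the percentile over detected probes, with no filter and with every kept probe fitted on its own. Only probes above background on all arrays gave 9 for Fr2 against Fr3. With 1 array left out the counts ranged from 0 to 13, from 0 to 1476 and from 0 to 988; 1476 was reached without Fr3 replicate 1. With replicate number as a block the counts were 0, 0 and 0. The replicate numbers' deviations correlated at 0.118 between Fr1 and Fr2, 0.433 between Fr1 and Fr3 and 0.046 between Fr2 and Fr3. The main fit did not take the numbers as pairs. Same-numbered arrays of Fr1 and Fr3, which lay on 1 slide, did deviate together in part, and the main fit leaves that out.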
